A study of Mus musculus with 4 samples.

Results

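The histone genes of mouse colonic organoids were followed here at the level of mRNA. Members were the genes of the count table whose symbol begins with Hist1h to Hist4h, H1f, H2af or H3f, leaving out pseudogene names with the suffix ps, and which had at least 1 count in any library. Of 36144 gene names, 86 fitted the symbol and 77 of these were detected. They comprised 66 replication-dependent genes (53 of the Hist1, 10 of the Hist2, 2 of the Hist3 and 1 of the Hist4 group) and 11 replacement variant genes. The other 9 had a count of 0 in every library (*H1fnt*, *H1foo*, *H2afb1*, *H2afb2*, *H2afb3*, *H2afy3*, *Hist1h2aa*, *Hist1h2aj* and *Hist1h2ba*). Fold changes were computed for genes that exceeded 10 counts in 2 or more libraries, that is for 13979 genes of the table, 20 of the replication-dependent members and 10 of the variants. The only detected variant below this filter was *H3f3c*, annotated as a processed pseudogene, with 3 to 5 counts per library.

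The organoids (colonoids) were 3-dimensional epithelial cultures grown from colon of a male mouse aged 24 weeks, labelled WT, and sampled at passage 3. The legend of the study instead names a Hes1-GFP mouse, a difference that entered no comparison. All cultures received crypt medium with EGF, Noggin, R-spondin, CHIR99021 and Y-27632. The groups were untreated at 48 h (day 2), 2 mM sodium butyrate for 48 h, untreated at 72 h (day 3) and 2 mM sodium butyrate for 72 h, with 1 library each and so without replicates. All intervals below are 95% counting intervals, they cover counting error only, and no difference could be set against the spread between cultures.

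Library totals lay between 20790225 and 24207840 counts, and mitochondrial genes took 14.1% to 18.4% of them. All 6 epithelial markers (*Epcam*, *Cdh1*, *Krt8*, *Krt18*, *Vil1* and *Cdx2*) were detected, with 106215 to 136145 counts per library in sum. Summed counts were 14 to 24 for 6 fibroblast markers, with *Col3a1* and *Lum* at 0 throughout, 46 to 66 for 6 immune markers and 26 to 54 for 3 endothelial markers. In bulk RNA, fewer cells of a type and less RNA per cell cannot be told apart.

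Replication-dependent histone genes supply the core histones H2A, H2B, H3 and H4 and the linker histones H1 that package newly copied DNA, and they are transcribed mainly in S phase. Their mRNAs usually end in a conserved stem-loop, bound by SLBP, in place of a poly(A) tail. Replacement variants such as H1.0 (*H1f0*), H3.3 (*H3f3a*, *H3f3b*) and H2A.Z (*H2afz*, *H2afv*) are made outside S phase from polyadenylated mRNAs and enter chromatin independently of replication. Butyrate is a product of bacterial fermentation that colonocytes use as fuel and that inhibits histone deacetylases, and *H1f0* is a gene long known to respond to it in cell culture. The libraries were made after poly(A) pulldown, so the counts of cluster genes describe the part of their mRNA that was captured through a poly(A) tail or by carry-over, and not the whole of it.

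For each gene only 1 GENCODE transcript model (GRCm38) was searched, the coding model with the most bases after the stop codon. The stem-loop was read from the first 100 of these bases, as GGNNCTNTNNAGNNCC with 6 complementary stem pairs, on the transcribed strand. It was present in 45 of 20965 coding genes (0.215%). Among the members it was found in 43 of the 52 replication-dependent models with at least 16 bases after the stop codon (82.7%) and in 1 of the 10 variant models of that kind, *H2afx*. The types are shown because the arm sets H4 apart from the other replication-dependent families, while the variant *H2afx* has an arm found in H4 genes. Capitals mark the arms of the stem and lower case the loop.
Type in 25 genes, among them *Hist1h1c*, *Hist2h2aa2* and *Hist3h2a*: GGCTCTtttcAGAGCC
Type in 7 genes, all of them H4: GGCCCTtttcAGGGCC
Type in 6 genes, among them *Hist1h1t* and *Hist1h3c*: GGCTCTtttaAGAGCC
Type in 2 genes, *Hist1h4i* and *Hist2h4*: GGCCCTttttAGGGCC
Type in 2 genes, *Hist1h4b* and *Hist1h4j*: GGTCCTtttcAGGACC
Type in 1 gene, *Hist2h2ac*: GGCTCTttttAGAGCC
Type in the variant *H2afx*: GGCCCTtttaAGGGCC
All 11 H4 genes with a hit shared an outer GGCCCT or GGTCCT arm, and the H1, H2A, H2B and H3 cluster genes with a hit had GGCTCT. The model of *Hist1h1c* ran on for 840 bases past the stem-loop, and that of *Hist3h2a* for 1643 bases. No such sequence lay in the window of *Hist1h2bc* or *Hist2h2be*, whose models had 742 and 2192 bases after the stop codon.

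RefSeq promoters (GRCm38.p6, 250 bases before to 50 bases after the start) could be matched to 59 replication-dependent genes and 9 variants. The motif CCAAT, on either strand, was present in 84.7% of the replication-dependent promoters, in 55.6% of the variant promoters and in 37.4% of all 32851 promoters. All H1, H2A, H2B and H3 cluster promoters held it, against 25% of the H4 promoters. TATAAA was present in 54.2% of the replication-dependent promoters, in 0 of the 9 variant promoters and in 13.6% of all. The octamer ATTTGCAT was found in 6 of 17 H2A and 5 of 15 H2B cluster promoters and in 1.74% of all, and in none of the H1, H3 or H4 cluster promoters. AAACACA, a motif of H1 promoters that was added after the promoters had been read, was present in 4 of 5 cluster H1 promoters and in 7.18% of all. The 250 bases before the start are given for 3 of the 4 abundant cluster genes described below and for *H1f0*, with motif matches in capitals; no promoter was matched to *Hist1h2bc*.
*Hist1h1c*, chr13:23738557-23738806 (+): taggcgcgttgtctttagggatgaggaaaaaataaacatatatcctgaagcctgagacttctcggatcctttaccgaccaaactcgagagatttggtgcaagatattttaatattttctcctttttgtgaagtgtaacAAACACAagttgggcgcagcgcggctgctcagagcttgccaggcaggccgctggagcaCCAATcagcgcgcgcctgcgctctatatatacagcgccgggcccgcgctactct
*Hist2h2aa2*, chr3:96240375-96240624 (-): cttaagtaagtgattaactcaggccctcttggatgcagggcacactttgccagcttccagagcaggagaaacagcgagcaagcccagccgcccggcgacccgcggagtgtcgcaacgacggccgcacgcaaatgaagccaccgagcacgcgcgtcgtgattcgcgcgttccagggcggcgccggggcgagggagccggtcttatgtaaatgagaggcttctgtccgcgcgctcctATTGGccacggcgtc
*Hist3h2a*, chr11:58954435-58954684 (+): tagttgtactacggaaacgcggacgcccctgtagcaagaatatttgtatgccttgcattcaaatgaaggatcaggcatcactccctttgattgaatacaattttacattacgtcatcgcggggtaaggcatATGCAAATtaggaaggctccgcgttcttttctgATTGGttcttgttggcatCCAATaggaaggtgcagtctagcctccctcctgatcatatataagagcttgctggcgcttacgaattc
*H1f0*, chr15:79027962-79028211 (+): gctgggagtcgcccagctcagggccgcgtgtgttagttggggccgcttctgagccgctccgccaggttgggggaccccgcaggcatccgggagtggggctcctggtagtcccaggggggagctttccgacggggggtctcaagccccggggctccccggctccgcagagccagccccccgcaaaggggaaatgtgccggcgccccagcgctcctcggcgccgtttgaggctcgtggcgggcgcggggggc
*Hist1h1c* carried AAACACA and CCAAT, *Hist2h2aa2* carried CCAAT on the reverse strand, and *Hist3h2a* carried the octamer and CCAAT. None of the 4 motifs was in the *H1f0* window, which ends before the start of the GENCODE model of this gene at position 79028450. The window of *Hist2h2aa2* also ends before the start of its GENCODE model, at position 96240276 on the minus strand.

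Cluster transcripts were the minor part of the captured histone mRNA. The 66 replication-dependent genes together had 2572 counts without and 2660 with butyrate at 48 h, then 3821 and 2649 at 72 h. The 11 variants had 37381 and 43450 counts at 48 h, then 43361 and 41018 at 72 h. The replication-dependent share of histone counts was therefore 6.44% (6.20 to 6.68), 5.77% (5.56 to 5.99), 8.10% (7.85 to 8.35) and 6.07% (5.84 to 6.29), in the same order. Per kb of transcript, the summed normalised level of the variants was 8.07 and 9.14 times that of the cluster genes at 48 h, then 6.55 and 8.85 times at 72 h. The untreated library at 72 h had the highest cluster level of the 4.

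A few genes made up most of the cluster signal. *Hist1h1c* and *Hist1h2bc* alone gave 63.0% to 72.0% of the replication-dependent counts, and with *Hist2h2aa2* and *Hist3h2a* the share was 73.1% to 82.1%. By contrast, 55 of the 66 genes stayed below 30 counts in every library, and 2 (*Hist1h2bl* and *Hist2h2ab*, named after their values were seen) had a single count over all libraries. The 25 genes whose model has at least 200 bases after the stop codon, a division made after the counts were seen, held 89.2% to 91.7% of the replication-dependent counts. Their median mean level was 14.5 normalised counts, against 2.49 for 40 genes with a shorter end. Per kb of transcript the medians were 9.34 and 5.25. *Hist2h2aa2*, with 109 bases after the stop codon, was the most abundant of the shorter models, at 132.5 normalised counts. The part of poly(A) selection in these differences was not tested.

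**Figure D1:**
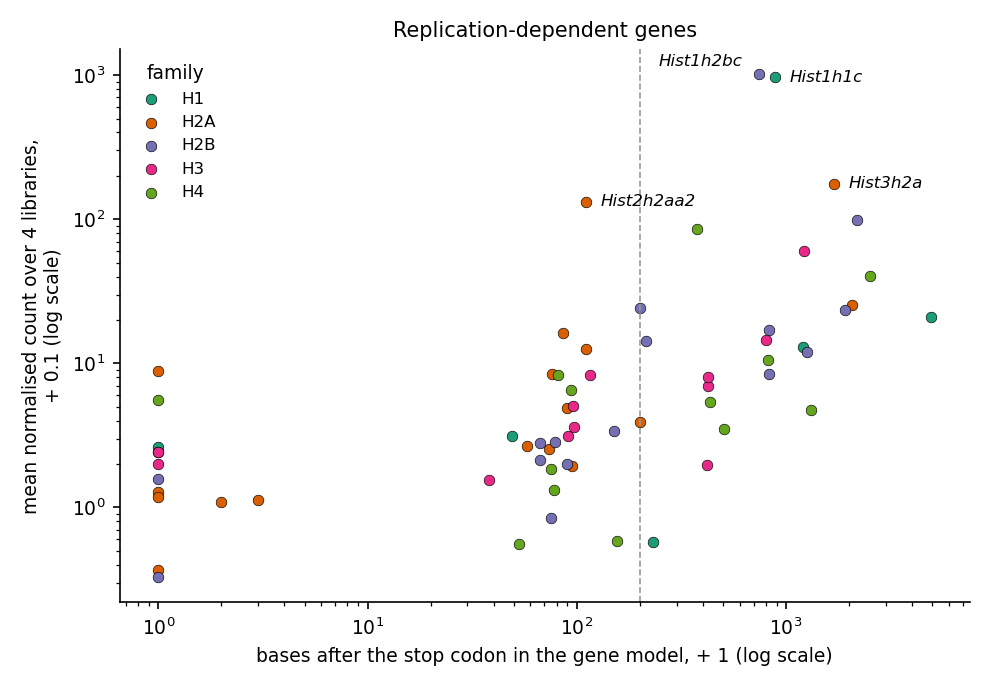
Mean normalised count over the 4 libraries (log scale, 0.1 added) of 65 replication-dependent genes against the number of bases after the stop codon in the gene model (log scale, 1 added), coloured by histone family, with a dashed line at 200 bases. *Hist1h2bc* and *Hist1h1c* stand highest, and *Hist2h2aa2* stands above the other genes with short 3′ ends.

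With butyrate, the summed level of the replication-dependent genes was lower and that of the variants was slightly higher, at both times. Relative to the untreated library of the same time, the log2 ratio of the replication-dependent sum was −0.12 (−0.20 to −0.05) at 48 h, then −0.40 (−0.47 to −0.33) at 72 h. That of the variant sum was 0.04 (0.02 to 0.06) and 0.05 (0.03 to 0.07). Within libraries, the ratio of replication-dependent to variant counts was 0.890-fold that of untreated colonoids at 48 h, then 0.733-fold at 72 h (log2 −0.17, −0.25 to −0.09, and −0.45, −0.52 to −0.37). The log2 ratio of the replication-dependent sum at 72 h minus that at 48 h was −0.28 (−0.38 to −0.17), a difference whose interval covers counting error only and which was not tested over cultures.

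Both sums rested on few genes, and the 48 h values depended on them. So did the 48 h ratio of the classes. Its decrease was nearly lost without *H1f0* and turned to an increase without the 4 most abundant cluster genes, as given in the last section. Without *Hist1h2bc* the log2 ratio of the replication-dependent sum was 0.01 (−0.09 to 0.11) at 48 h, then −0.39 (−0.48 to −0.30) at 72 h. Without *Hist1h1c* it was −0.26 (−0.35 to −0.16) and −0.35 (−0.45 to −0.26). For the 62 genes other than the 4 most abundant the ratio was 0.12 (−0.04 to 0.28) at 48 h, then −0.14 (−0.30 to 0.03) at 72 h. No change in their sum was thus detectable at these counts. Intervals of single genes among them excluded 0 in both directions, as for *Hist2h2be* at 72 h (−0.90, −1.39 to −0.44) and *Hist3h2ba* at 48 h (1.47, 0.40 to 2.93). Without *H1f0* the ratio of the variant sum was −0.11 (−0.13 to −0.09) at 48 h, a lower level with butyrate, then 0.02 (0.00 to 0.05) at 72 h. All but the division without *Hist1h2bc* were made after the values were seen.

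The summed level of the cluster genes also differed with time in culture, mainly through *Hist1h1c*. Between the untreated libraries the replication-dependent sum was higher at 72 h than at 48 h by 0.52 (0.45 to 0.59) on the log2 scale, and between the butyrate libraries by 0.25 (0.17 to 0.32). Without *Hist1h1c* these values were 0.20 (0.12 to 0.29) and 0.11 (0.01 to 0.20), and for the 62 less abundant genes 0.18 (0.02 to 0.34) and −0.08 (−0.24 to 0.08). The variant sum was higher by 0.16 and 0.17. At least 2-fold higher at 72 h than at 48 h were 4 of the 20 tested replication-dependent genes without butyrate (2.66% of all genes) and 1 with it (3.67%), and at least 2-fold lower were 0 (1.82%) and 2 (4.95%). Some of these calls were lost when a gene was summed with the gene that shares most of its sequence. In such sums *Hist1h2ao* went from 15 to 21 counts without butyrate, and *Hist1h2bq* from 26 to 19 with it. *Hist1h4h* went from 14 to 12 without butyrate, but from 22 to 1 with it. Comparisons between the times share their libraries with those of butyrate, so that a high value of the untreated library at 72 h enters both.

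By family, the sums of cluster H2A and H2B were lower with butyrate at both times, and that of cluster H1 was higher at 48 h and lower at 72 h, with each sum resting mainly on 1 or 2 genes. Cluster H2A, the partner of H2B in the nucleosome, had 429 and 351 counts at 48 h, then 489 and 331 at 72 h, with log2 ratios of −0.46 (−0.67 to −0.26) and −0.43 (−0.64 to −0.23). Cluster H2B had 1242 and 1132 counts at 48 h, then 1518 and 1029 at 72 h, with ratios of −0.31 (−0.42 to −0.19) and −0.43 (−0.55 to −0.32). For both sums each treated library lay below the untreated one of its time. Without *Hist1h2bc* the H2B ratios were −0.07 (−0.33 to 0.20) and −0.51 (−0.81 to −0.21). Without *Hist2h2aa2* and *Hist3h2a* the other 16 H2A genes had ratios of 0.52 (0.05 to 1.00) and 0.03 (−0.38 to 0.44), and without *Hist2h2aa1*, the near-identical copy of *Hist2h2aa2*, as well, 0.47 (−0.03 to 0.99) and −0.21 (−0.66 to 0.23). These divisions were made after the values were seen.

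Cluster H1, the linker histones, had 635 and 844 counts at 48 h, then 1530 and 1009 at 72 h. Its log2 ratios were 0.24 (0.09 to 0.39) and −0.47 (−0.59 to −0.36), and its level in untreated colonoids was higher by 1.22 (1.08 to 1.35) at 72 h than at 48 h. Without *Hist1h1c* the other 5 H1 genes had 29 and 38 counts at 48 h, then 55 and 37 at 72 h, and their ratios of 0.22 (−0.52 to 0.97) and −0.44 (−1.08 to 0.18) had intervals that included 0. Cluster H3 gave only 108 to 127 counts per library, with ratios of −0.05 (−0.43 to 0.32) and 0.22 (−0.17 to 0.61). Cluster H4 gave 149 to 206 counts, with 0.29 (−0.02 to 0.61) and 0.04 (−0.28 to 0.35). For H3 and H4 a change of the sum was not detectable at these counts.

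**Figure D2:**
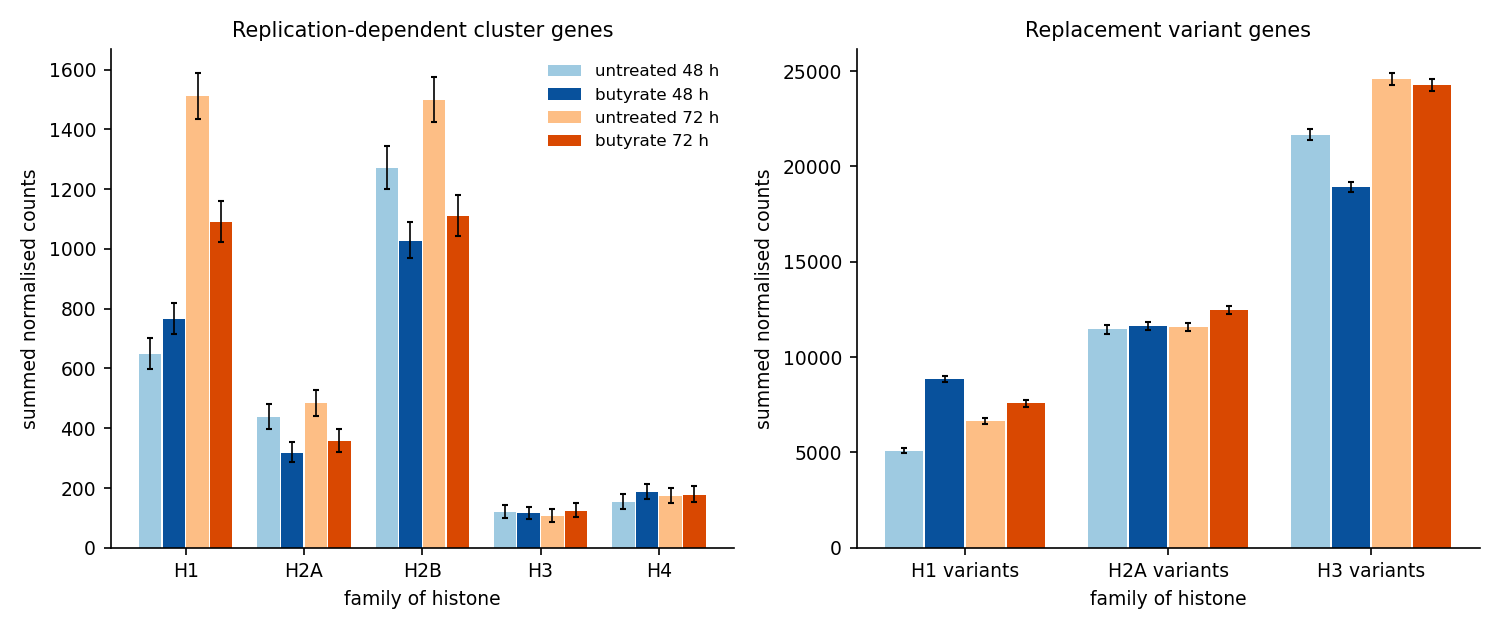
Summed normalised counts of the replication-dependent genes (left) and replacement variants (right) by histone family in the 4 libraries, 1 library per bar, with 95% counting intervals. The sums of cluster H2A and H2B, carried mainly by *Hist2h2aa2*, *Hist3h2a* and *Hist1h2bc*, are lower with butyrate at both times, cluster H1 is highest in untreated colonoids at 72 h, and the H1 variants are highest with butyrate at 48 h.

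Among single genes, calls are given as counting intervals that exclude 0, beside the share of all tested genes called by the same rule. At 48 h, 3 of the 20 tested replication-dependent genes were lower with butyrate (31.3% of all genes were) and 3 were higher (29.3% of all). At 72 h, 6 were lower (26.4% of all) and 1 was higher (25.9% of all). Their median log2 fold change (pseudocount of 1) was 0.01 at 48 h, then −0.30 at 72 h, against −0.01 and 0.00 for all genes. Over all 66 detected genes, with no filter, the medians were 0.08 and 0.00, and over the 17 tested genes other than *Hist1h1c*, *Hist1h2bc* and *Hist2h2be* they were 0.08 and −0.09, so that the lower median at 72 h rested on which genes were counted. At 48 h the median of the tested genes and the log2 ratio of the sum differed in sign. At a limit of 1.5-fold, 2 were lower (8.9% of all) and 6 higher (13.1%) at 48 h, as against 7 lower (8.53%) and 1 higher (9.5%) at 72 h. A change of at least 2-fold was seen in 3 genes upwards at 48 h (6.94% of all genes) and in 0 downwards (3.08% of all), and at 72 h in 1 upwards (4.53% of all) and in 3 downwards (3.78% of all). When each of these genes was summed with the gene that shares most of its sequence (for *Hist2h2aa1* and *Hist2h2aa2*, with each other), *Hist3h2ba* alone stayed at least 2-fold higher at 48 h and *Hist1h4h* alone at least 2-fold lower at 72 h, and none was 2-fold higher at 72 h. The 1 gene that was higher at 72 h, *Hist2h2aa1*, passed the count filter only through the butyrate libraries.

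*Hist1h1c* encodes H1.2, a main somatic linker histone, and lies on chromosome 13 from 23738808 to 23740367 in a single exon (GRCm38). It had 606 counts without and 806 with butyrate at 48 h, then 1475 and 972 at 72 h. The untreated library at 72 h was the highest and the untreated library at 48 h the lowest, with both treated libraries between them. On the log2 scale the change was 0.24 (0.09 to 0.39) at 48 h, then −0.47 (−0.59 to −0.35) at 72 h, and 1.23 between the untreated libraries.

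*Hist1h2bc* encodes an H2B whose mRNA has been described as polyadenylated as well, and has 2 exons on chromosome 13 from 23684199 to 23692908. Its counts were 1014 and 887 at 48 h, then 1278 and 875 at 72 h. With butyrate the level was lower at each time, with log2 fold changes of −0.37 (−0.50 to −0.23) and −0.42 (−0.54 to −0.29). Of its sequence words of 31 bases, 66.6% occurred in no other gene.

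*Hist2h2aa2* encodes an H2A and lies on chromosome 3 from 96239749 to 96240276, in a duplicated region that also holds *Hist2h2aa1*. It had 167 and 97 counts at 48 h, then 184 and 83 at 72 h, and its log2 fold changes of −0.95 (−1.33 to −0.59) and −1.01 (−1.41 to −0.64) were the largest decreases among the 4 abundant cluster genes. None of its 31-base words was unique among gene models of either strand. The model that shared most of them was *Gm20632*, which is absent from the count table and, like *Gm47311*, overlaps it on the antisense strand. This value therefore does not show how far its reads could have been split with its copy. *Hist2h2aa1*, named after its values were seen, had 7 and 14 counts at 48 h, then 7 and 21 at 72 h. The sum of the pair, which does not depend on that split, was 174 and 111 at 48 h, then 191 and 104 at 72 h, with log2 ratios of −0.82 (−1.18 to −0.47) and −0.75 (−1.11 to −0.40). Both treated libraries lay below both untreated ones.

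*Hist3h2a*, an H2A gene outside the main clusters on chromosome 11 from 58954685 to 58956830, had 200 and 154 counts at 48 h, then 199 and 149 at 72 h. Its fold change was −0.55 (−0.86 to −0.24) at 48 h. At 72 h it was −0.29, and the interval of −0.60 to 0.03 included 0. *Trim17* overlaps the gene on the same strand, with 3 to 7 counts.

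Just outside the abundance limit of 100 mean normalised counts, *Hist2h2be* (an H2B gene described as polyadenylated, at 98.6) had 115 and 110 counts at 48 h, then 117 and 57 at 72 h. Its changes were −0.23 (−0.63 to 0.15) and −0.90 (−1.39 to −0.44). The next gene, *Hist1h4i* of the H4 family, had 69 and 82 counts at 48 h, then 90 and 98 at 72 h, with changes of 0.08 (−0.40 to 0.56) and 0.25 (−0.18 to 0.68). *Hist1h2bq* had a change of −1.70 at 72 h on 20 and 5 counts, but only 1.74% of its 31-base words were unique, and summed with *Hist1h2br*, with which it shares most, the counts were 27 and 19 and the log2 ratio −0.38 (−1.31 to 0.52). *Hist1h4h* had −2.51 on 11 and 1 counts, where the counting interval of the ratio was −8.76 to −0.55. At 48 h *Hist1h2ao* had a change of 1.71 on 5 and 21 counts, but summed with *Hist1h2ap*, which went from 10 counts to 0, the counts were 15 and 21 and the ratio 0.31 (−0.71 to 1.37). *Hist3h2ba* had 1.47 on 8 and 27 counts, with 62.8% of its words unique. The 8 genes of this paragraph were named after their values were seen. All of them but *Hist2h2be* and *Hist1h4i* rested on fewer than 30 counts in every library.

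**Figure D3:**
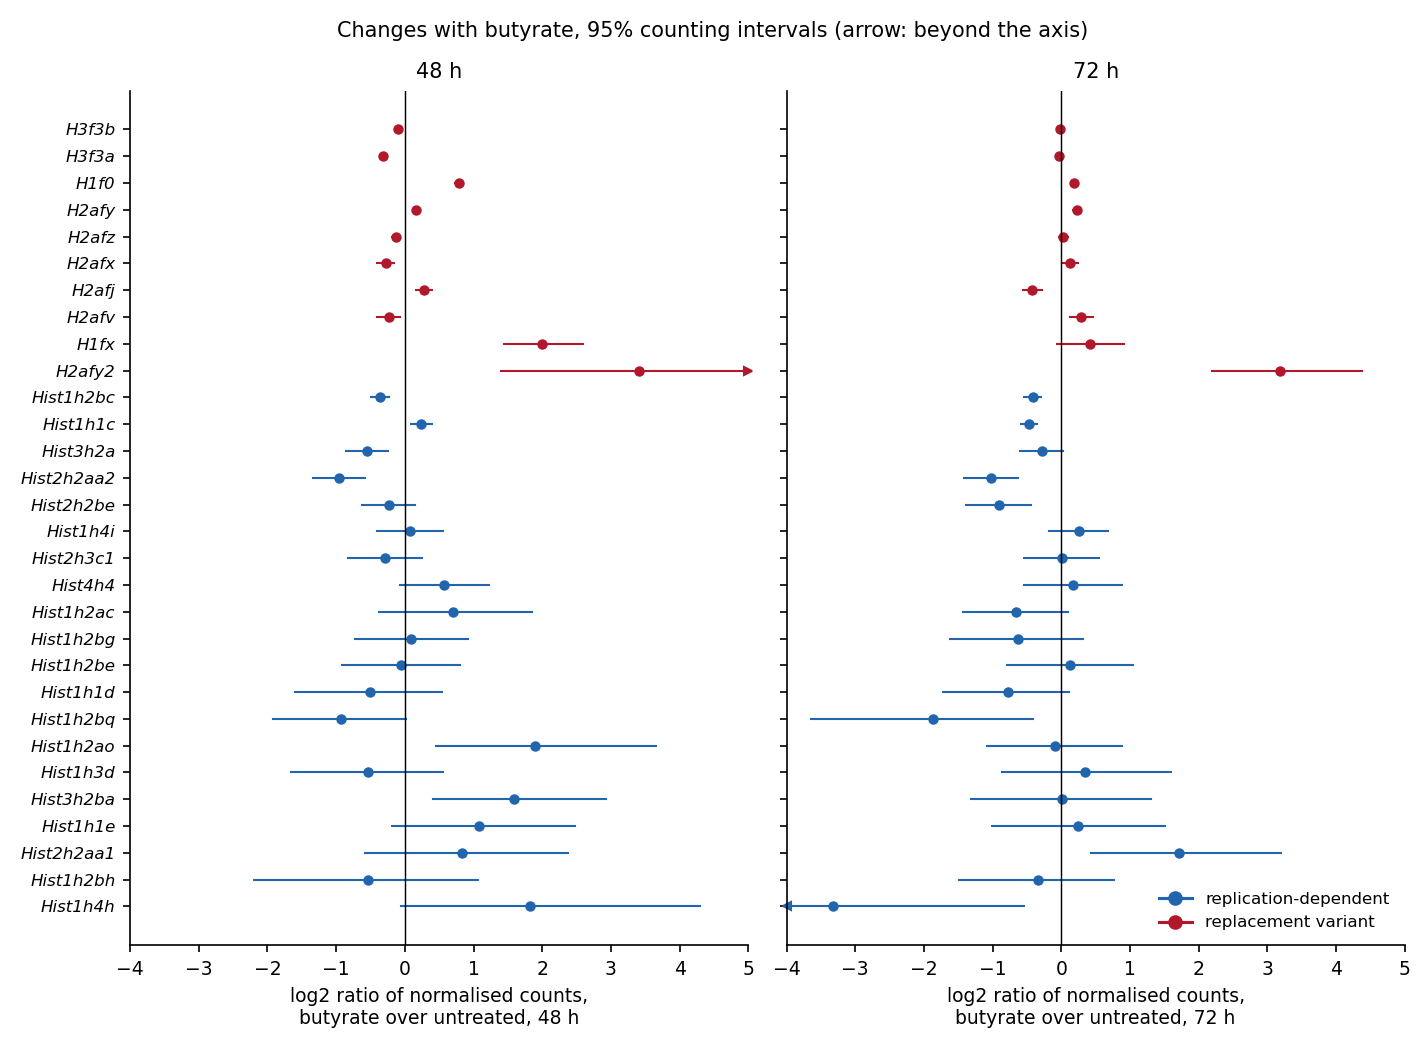
Log2 ratios of normalised counts, butyrate over untreated, at 48 h (left) and 72 h (right) for the 30 histone genes that passed the count filter, without pseudocount, with 95% counting intervals; genes are ordered by class and mean level. *H2afy2*, which passed the filter only through the butyrate libraries, is far above 0 at both times. *Hist2h2aa2* is below 0 at both times, and the intervals of low-count cluster genes are wide.

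The replacement variants split in equal numbers at 48 h, when 5 of the 10 tested were lower with butyrate (31.3% of all genes) and 5 higher (29.3%) by their counting intervals. At 72 h, 1 was lower (26.4% of all) and 5 were higher (25.9%). Their median log2 fold change was 0.03 and 0.15, and without *H2afy2*, left out after its values were seen, it was −0.10 and 0.13. At least 2-fold higher were *H1fx* and *H2afy2* at 48 h (6.94% of all genes) and *H2afy2* at 72 h (4.53%), but *H2afy2* passed the count filter only through the butyrate libraries and so had to differ. Variants had from 2 to 15009 counts, so their intervals differ widely in width.

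*H1f0* encodes H1.0, the linker histone that accumulates in differentiating and resting cells, and lies on chromosome 15 from 79028450 to 79030504 in a single exon. It had 4959 and 9611 counts at 48 h, then 6675 and 6930 at 72 h. The butyrate library at 48 h was the highest and the untreated library at 48 h the lowest. The level with butyrate was 1.72-fold that of untreated colonoids at 48 h (log2 0.78, 0.73 to 0.83) and 1.14-fold at 72 h (0.18, 0.13 to 0.23), and the log2 difference between the times was −0.60 (−0.67 to −0.53). Among all tested genes these changes stood at the 90.3 and 72.0 percentiles. Normalised counts of *H1f0* were 1.30-fold higher in untreated colonoids at 72 h than at 48 h.

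With butyrate the balance of *H1f0* and *Hist1h1c* was shifted towards *H1f0* at both times. Per kb of transcript, *H1f0* stood at 2467 normalised counts without and 4243 with butyrate at 48 h, and at 3207 and 3642 at 72 h. *Hist1h1c* stood at 397.2 and 468.8, and at 933.6 and 672.9. The log2 ratio of *H1f0* to *Hist1h1c* was higher with butyrate by 0.54 (0.38 to 0.70) at 48 h, then by 0.66 (0.53 to 0.78) at 72 h. It was lower at 72 h than at 48 h, with a difference of −0.85 (−1.0 to −0.71) in untreated and of −0.74 (−0.88 to −0.60) in butyrate-treated colonoids. *H1fx*, a further H1 variant of low level, had 33 and 149 counts at 48 h, then 66 and 81 at 72 h, with fold changes of 1.97 (1.45 to 2.59) and 0.42 (−0.06 to 0.92) on the log2 scale.

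Of the H2A variants, *H2afy2* had the largest ratio at both times. It encodes macroH2A2, an H2A with a large additional macro domain, and has 9 exons on chromosome 10 from 61738665 to 61784147. Only 2 counts were found in untreated and 24 with butyrate at 48 h, then 9 and 75 at 72 h. The gene passed the count filter only through the butyrate libraries, so both treated libraries had to lie above both untreated ones. The ratio was 10.7-fold at 48 h, with a counting interval from 2.64 to 93.0, and 9.12-fold at 72 h (4.55 to 20.7). With a pseudocount of 1 the log2 fold changes were 2.90 and 3.05. The gene *Aifm2*, which overlaps it on the opposite strand, had 298 and 335 counts at 48 h, then 249 and 206 at 72 h.

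*H2afy*, which encodes macroH2A1 on chromosome 13 from 56073619 to 56136361, was far more abundant, with 4470 and 5663 counts at 48 h, then 4746 and 5095 at 72 h. It was higher with butyrate by 0.17 (0.11 to 0.23) and 0.23 (0.17 to 0.29). The difference between times was not detectable, at 0.06 (−0.02 to 0.14).

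For 3 variants of H2A, of the 10 tested variants, the sign of the change differed between 48 h and 72 h with both intervals excluding 0, as it did for 9.86% of all genes (4.54% higher and then lower, as *H2afj*, and 5.33% lower and then higher, as *H2afv* and *H2afx*). *H2afj*, which encodes H2A.J, had 1031 and 1415 counts at 48 h, then 1109 and 757 at 72 h, a fold change of 0.28 (0.17 to 0.40) and then of −0.42 (−0.56 to −0.29). *H2afv*, which encodes the second H2A.Z protein, had 617 and 591, and 548 and 614 counts, with −0.23 (−0.40 to −0.07) and 0.29 (0.12 to 0.46). *H2afx*, whose H2A.X is phosphorylated next to DNA breaks, had 1062 and 986, and 1127 and 1124 counts, with −0.28 (−0.41 to −0.15) and 0.13 (0.01 to 0.25). *H2afz*, the main H2A.Z gene, kept within 3889 and 4172 counts, with −0.13 (−0.19 to −0.06) and 0.03 (−0.04 to 0.09). Of its 31-base words 57.7% were unique, and *Tmcc1*, with which it shares sequence, had 560 to 838 counts.

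By the mean over the 4 libraries the H3.3 genes had the highest counts of the members, before length was taken into account, but with butyrate at 48 h *H1f0* stood above *H3f3a*. *H3f3b* had 11928 and 12529 counts at 48 h, then 15009 and 13600 at 72 h, with fold changes of −0.10 (−0.14 to −0.07) and −0.01 (−0.05 to 0.02). *H3f3a*, which encodes the same protein, had 9260 and 8334, and 9895 and 8849 counts, with fold changes of −0.32 (−0.37 to −0.28) and −0.03 (−0.07 to 0.01). Both were lower at 48 h, and at 72 h no change was detectable. Together the H3 variants held 56.7% and 48.0% of the variant counts at 48 h, then 57.4% and 54.7% at 72 h, while *H1f0* held 13.3% and 22.1%, and 15.4% and 16.9%.

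Ordered by mean normalised count per kb of transcript, *H3f3b* (5278) came first, followed by *H2afz* (3785), *H1f0* (3390), *H3f3a* (3199) and *H2afy* (2431), and then by *Hist1h2bc* (875.5), *H2afx* (778.0), *Hist1h1c* (618.1), *H2afj* (580.4) and *H2afv* (363.0). *H2afz*, *H1f0* and *H3f3a* changed places between libraries. *H1f0* was the lowest of these 3 in both untreated libraries and the highest of them with butyrate at 48 h. Similarly, *Hist1h1c* was below *H2afj* in both libraries at 48 h and above it in both at 72 h.

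**Figure D4:**
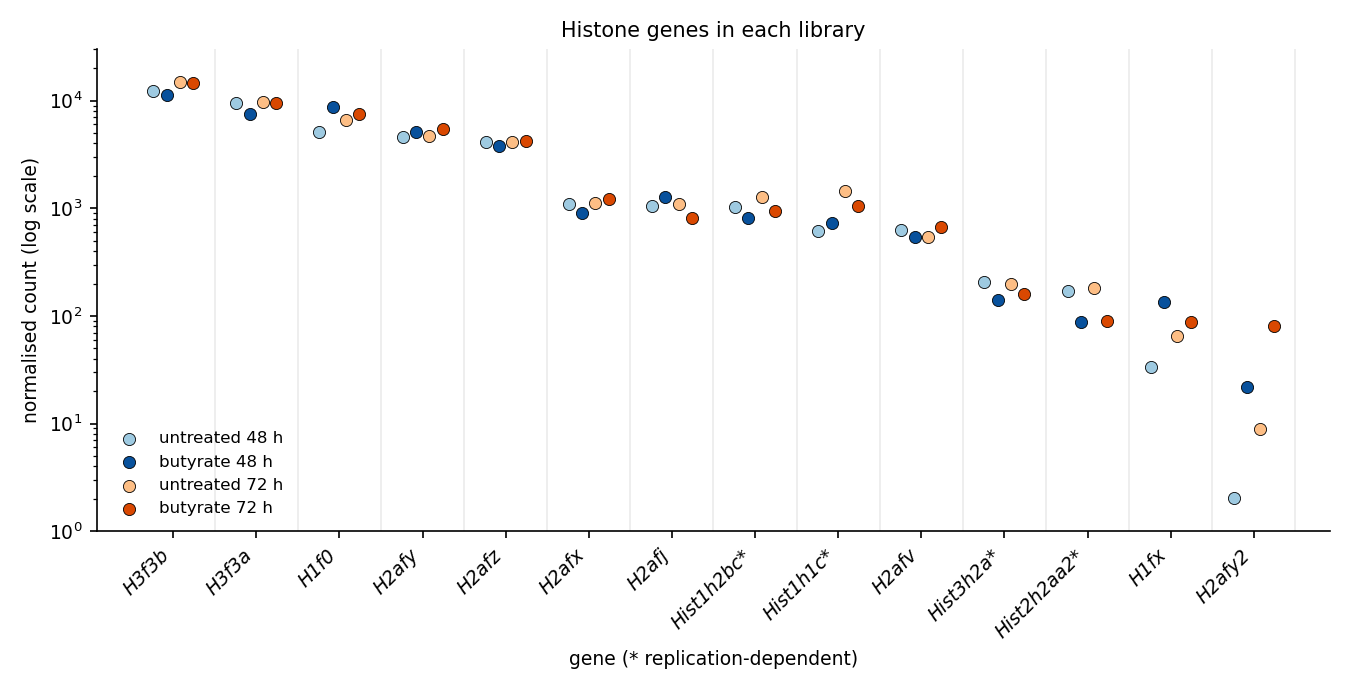
Normalised counts (log scale) of the 10 tested replacement variants and the 4 abundant replication-dependent genes (asterisks) in each library, 1 point per library. *H2afy2* spans the widest range, from 2 to 75 raw counts, and *Hist2h2aa2* has both treated libraries below both untreated ones.

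Genes that act on histone mRNA or deposit histones were followed in 4 lists, beside the shares of all genes called by the same rule. Of 14 genes for transcription and 3′ end processing of histone mRNA, 4 were lower (31.3% of all genes) and 2 higher (29.3%) with butyrate at 48 h by their counting intervals. At 72 h, 1 was lower (26.4% of all) and 4 were higher (25.9%). Their median log2 fold change was −0.05 and 0.00. *Slbp*, the stem-loop binding protein, had 1581 and 1592 counts at 48 h, then 1457 and 1538 at 72 h, with changes of −0.16 (−0.26 to −0.06) and 0.21 (0.10 to 0.31). *Npat*, the activator of histone gene transcription, had 796 and 869, and 804 and 713 counts, with −0.05 (−0.19 to 0.09) and −0.04 (−0.19 to 0.10). *Sympk*, a scaffold of the cleavage complex, was higher by 0.18 (0.11 to 0.25) and 0.34 (0.28 to 0.41). *Lsm10* and *Lsm11*, of the U7 particle that cuts histone mRNA, had intervals that included 0 at both times, and *Upf1*, a helicase of histone mRNA decay, was at −0.17 and −0.02.

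Of 13 replication-coupled histone chaperones, 3 were lower (31.3% of all genes) and 6 higher (29.3%) at 48 h, then 0 were lower (26.4%) and 9 higher (25.9%) at 72 h. Their median was 0.07 and 0.28. *Chaf1b* and *Chaf1a*, subunits of the CAF-1 complex that deposits H3 and H4 behind the replication fork, changed by 0.48 (0.35 to 0.61) and 0.61 (0.48 to 0.74), and by 0.19 (0.08 to 0.30) and 0.34 (0.23 to 0.45). *Rbbp4*, a further CAF-1 subunit, was higher by 0.11 and 0.30, the H3 and H4 chaperone gene *Nasp* by 0.14 and 0.28, and the importin gene *Ipo4* by 0.24 and, with an interval that included 0, 0.11. *Asf1b* showed −0.09 (−0.26 to 0.08) and −0.01 (−0.20 to 0.19). *Mcm2*, a helicase subunit that also binds histones, was at 0.00 (−0.09 to 0.08) and 0.29 (0.21 to 0.37).

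Of 24 further S phase genes, 7 were lower (31.3% of all genes) and 8 higher (29.3%) at 48 h. At 72 h all 24 had positive fold changes, as had 7027 of all 13979 tested genes. Intervals lay above 0 for 22 of the 24 (25.9% of all genes). Their median was 0.02 and 0.35. By the smaller of the changes at 48 h and 72 h, *Ccne1*, *Cdt1*, *Cdc6*, *Rrm2* and *Gins1* ranked highest among those of one sign. *Ccne1* was at 0.86 and 0.47, while the interval of *Gins1* at 48 h included 0, at 0.22 (−0.06 to 0.51).

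Of 13 chaperones of variants, 9 were lower (31.3% of all genes) and 1 higher (29.3%) at 48 h, with a median of −0.25. At 72 h, 1 was lower (26.4% of all) and 7 were higher (25.9%), with a median of 0.08. *Hira*, which deposits H3.3, was at 0.16 (0.06 to 0.27) and 0.04 (−0.06 to 0.15). Its partner *Ubn1* was at −0.53 (−0.62 to −0.44) and −0.07 (−0.16 to 0.01), the H3 and H4 chaperone gene *Asf1a* at −0.30 (−0.56 to −0.05) and −0.19 (−0.43 to 0.04), and *Ino80*, a remodeller that acts on H2A.Z, at −0.12 and −0.16. The centromeric H3 variant *Cenpa*, which the symbol rule does not include, had 1259 and 1214 counts at 48 h, then 1081 and 1119 at 72 h, with −0.22 (−0.34 to −0.11) and 0.18 (0.06 to 0.30).

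**Figure D5:**
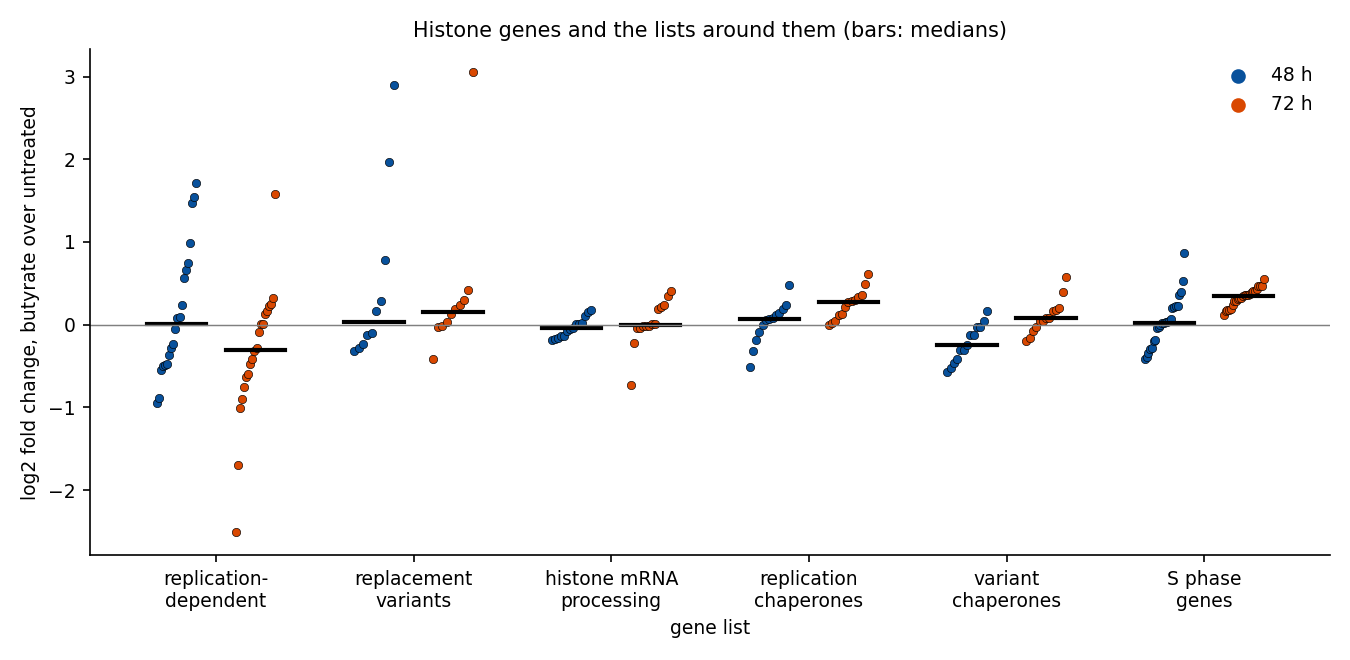
Log2 fold changes with butyrate at 48 h (blue) and 72 h (orange) of the tested histone genes by class and of the genes of 4 lists around them, 1 point per gene, with bars at the medians. At 72 h the median of the 20 tested replication-dependent genes lies at −0.30, and the S phase genes all lie above 0 around a median of 0.35. Of all 13979 tested genes, not shown, 7027 lie above 0 at 72 h.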

How the data were processed

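Poly(A)-selected mRNA of 4 mouse colonic organoid cultures was sequenced for the study at a core facility, on an Illumina platform. The submitters' processing notes name kallisto 0.44.0 and GRCm38.p6, and per the study's methods pseudoaligned transcript estimates were summed to genes with tximport. The deposited values are rounded estimated counts, without normalisation or filter. Counts were scaled with DESeq2 1.42.0 size factors, and, following the study's methods, a gene had to exceed 10 counts in 2 or more libraries. Fold changes are log2 of normalised counts with a pseudocount of 1. Intervals, always without pseudocount, are exact Clopper-Pearson 95% intervals on the pair of counts. For a change in a ratio of 2 sums or genes, and for a difference between times, they come from the sum of reciprocal counts. Reads carried no molecular identifiers and so do not count independent molecules. With 1 library per condition no test was fitted. Library totals of 20790225 to 24207840 put a floor of 3 counts at 2.72 to 3.24 normalised counts.

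Gene models came from GENCODE by symbol, and kb levels used the length of 1 transcript model per gene. Sharing of sequence was read as the percentage of 31-base words found in no other gene model, on either strand. In 42 of the 66 replication-dependent genes below 50% were unique, and their single values can depend on how reads were split. Some of the models that share words, among them antisense ones, are absent from the count table, so the percentages can overstate sharing between counted genes. Sums over a class or family do not depend on splits within it. The lists around the histone genes were written from general knowledge, and the members and lists were chosen with earlier results of these data known. Named genes were all tested variants, replication-dependent genes averaging 100 normalised counts or more, in each list up to 5 genes with the largest smaller change of one sign at both times (the list of variant chaperones had 4 of one sign), and *Slbp*, *Npat*, *Cenpa*, *Asf1b*, *Hira*, *Chaf1a* and *Mcm2*. Protein sequences were not analysed here. Functions were tested on simulated data. Alternatives were TMM factors (edgeR 4.0.16), total counts with and without mitochondrial genes, a pseudocount of 5 or 0, other filters, a 1.5-fold limit and sums without single members or groups of members. Scripts ran in R 4.3.3 and Python 3.11.15 (matplotlib 3.10.9, scipy 1.17.1, pandas 2.3.3, numpy 2.4.6).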

Additional observations from a re-analysis of the deposited data

Results flagged for a closer look

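The sign of the butyrate change turned between 48 h and 72 h, each time with an interval that excluded 0, for 6 named genes and 1 family sum. The log2 change at 72 h minus that at 48 h was −0.71 for *H2afj*, 0.53 for *H2afv*, 0.41 for *H2afx*, −0.71 for *Hist1h1c*, 0.37 for *Slbp*, 0.40 for *Cenpa* and −0.71 for the cluster H1 sum. *Hist1h1c* makes up most of the cluster H1 sum, so these 2 values are not separate observations. *H2afj* and *Hist1h1c* were higher with butyrate at 48 h and lower at 72 h, and *H2afv*, *H2afx*, *Slbp* and *Cenpa* were lower at 48 h and higher at 72 h. The same turn was seen in 1379 of all 13979 tested genes (9.86%), in 1 of 20 replication-dependent genes, in 3 of 10 variants and in 15 of the 64 genes of the lists around them, all 15 lower at 48 h and higher at 72 h. List genes were named mainly for changes of one sign, so most of these 15 are not among the 6. With 1 library per condition, the difference between the times was not tested.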

How the results depend on the processing

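No libraries were paired by replicate, since the labels give no replicate numbers and there was 1 library per condition. A fit of treatment with time as a block, which would take the difference between the times as its error, was not run. Of 796 values recomputed under other settings, 742 moved by less than their counting interval or by less than 1.5 times for a count. A further 48 moved by more, and 6 took the opposite sign of a value whose interval excluded 0. Changes of sign were not counted where that interval included 0. For 53 single genes, 527 of 530 values stayed within the interval, and none with an interval excluding 0 took the opposite sign. Under the other scalings the median log2 change of all genes lay between −0.02 and 0.05. The variant sum at 72 h was 0.10 with total counts. Without the largest member, the replication-dependent sum at 48 h was 0.014, and the variant sum was 0.108 at 48 h and 0.081 at 72 h. Without the 4 abundant cluster genes the replication-dependent sum was 0.12 at 48 h and −0.14 at 72 h, its change between butyrate libraries was −0.078, and its ratio to the variants changed by 0.074 and −0.185. Without *H1f0* the variant sum was −0.111 and 0.023, and the ratio at 48 h −0.013. Without the described polyadenylated members (*Hist1h1c*, *Hist1h2bc* and *Hist2h2be*) the 72 h sum was −0.22 and the ratio −0.27, and the ratio between untreated libraries changed by −0.03. The variant median at 48 h was −0.10 with no filter beyond 1 count or at a mean of 50, and 0.17 without *H2afx*. With no filter beyond 1 count, replication-dependent genes past 2-fold were 7 lower and 15 higher of 66 at 48 h (9.4% and 11% of all genes under that filter), and 11 lower and 12 higher at 72 h (8.25% and 10.6%). At a mean of at least 50 they were 0 higher of 7 at 48 h (3.93% of all genes), and 1 lower (1.6%) and 0 higher (2.33%) at 72 h, and variants 1 and 0 higher of 9. At 1.5-fold, 2 of the 20 tested replication-dependent genes were lower (8.9% of all genes) and 6 higher (13.1%) at 48 h. At 72 h, 7 were lower (8.53%) and 1 was higher (9.5%). The causes were not tested. Low counts limit most cluster genes: 55 of 66 had fewer than 30 counts in every library, and the intervals of those that were tested are wide.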
